A study of Mus musculus with 6 samples.

Results

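The 10 genes described here encode the contractile apparatus of smooth muscle: Acta2, Myh11, Tagln, Cnn1, Myl9, Des, Actg2, Tpm2, Mylk and Lmod1. In the testis they mark the peritubular myoid cells around the seminiferous tubules and the walls of blood vessels. They were taken by name, as every probe whose annotated gene is one of the 10, which gave 12 of the 55681 probes on the array and 10 of 35019 genes. All 12 probes passed the filter on dim signal, as did 36627 probes and 25276 genes in all. RNA came from whole testes of mice aged 3 months, collected 10 days after the scrotum had been heated once, at 43 degrees C and for 20 min. One group was C57BL/6 (B6, wild type; 3 arrays). The other was B6.MRLc1-(D1Mit202–D1Mit403) (B6.MRLc1; 3 arrays), a congenic strain with MRL sequence in the telomeric part of chromosome 1, from 67.97 to 81.63 cM, on the C57BL/6 background. Both groups were heated, so every comparison is between strains after heat and none is a response to heat. The series design names 3 animals of each strain, so 1 array was read as 1 mouse; were these not separate animals, the p-values would measure technical spread only.

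Peritubular myoid cells are flat, smooth muscle-like cells that surround each seminiferous tubule, and their contraction moves sperm and fluid towards the rete testis. In smooth muscle, calcium bound to calmodulin activates myosin light chain kinase (Mylk), which phosphorylates the regulatory light chain (Myl9) and lets the myosin motor (Myh11) pull on actin filaments (Acta2, Actg2). Tropomyosin (Tpm2), calponin (Cnn1), transgelin (Tagln) and leiomodin (Lmod1) bind these filaments, and desmin (Des) links them to the rest of the cell. Serum response factor (Srf), with its partner myocardin (Myocd), switches on many of these genes through a DNA element called the CArG box.

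Each gene was read by probes of 60 bases, and Tpm2 and Mylk each had a pair of probes. The probes of Tpm2 and Myh11 are printed whole, and those of Mylk, Acta2 and Actg2 by their first 30 bases, because the results below turn on these genes or on agreement within a pair. Acta2 and Actg2 encode closely related actins. No probe of the 10 genes shared a run of 20 bases with a probe of another gene on the array. Probes were compared with probes and not with transcripts, so this cannot show that a probe reads its own gene alone.
Myh11: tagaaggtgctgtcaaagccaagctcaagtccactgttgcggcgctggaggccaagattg
Tpm2, tested probe: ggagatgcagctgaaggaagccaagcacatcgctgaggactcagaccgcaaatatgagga
Tpm2, second probe: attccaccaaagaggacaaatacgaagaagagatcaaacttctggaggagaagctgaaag
Mylk, tested probe: aggacatttatcatgtttcttccatcctga
Mylk, second probe: gcaagagaattgcaagatcaaggccagccc
Acta2: gttttgtggatcagcgcctccagttccttt
Actg2: tctggggatccccacaagactgctgtcacc

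RefSeq promoter sequences (GRCm38.p6) were at hand for 7 of the 10 genes, and not for Myh11, Tagln and Actg2. The 250 bases before each start were searched on both strands for the CArG box. A CArG-like motif, with 1 of the 6 central bases being C or G, was searched separately. Of the 7 windows, 1 held a CArG box (Myl9) and 2 held the CArG-like form (Myl9 and Acta2), against 1.47% and 7.24% of 32851 promoter windows of the same length. The stretches that hold them are printed with the motifs in capitals, because these are the windows in which either form was found. A match is a description of the letters only.
Myl9, chr2:156775283-156775394, plus strand: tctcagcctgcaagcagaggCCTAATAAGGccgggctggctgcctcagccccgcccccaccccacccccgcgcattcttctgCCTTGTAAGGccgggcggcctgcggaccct
Acta2, chr19:34255378-34255477, minus strand: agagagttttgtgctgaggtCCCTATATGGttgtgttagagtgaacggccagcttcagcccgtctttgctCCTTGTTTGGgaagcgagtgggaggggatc

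Levels below are log2 of the signal divided by the array's 75th percentile, so 0 is the signal of that percentile. Differences are log2 values, B6.MRLc1 minus B6, and their standard errors (SE) come from a limma fit over all genes. A gene counts as called at a Benjamini-Hochberg adjusted p under 0.05. That percentile lay between 558 and 666 intensity units. Between 68.6% and 69.0% of spots were well above background on the B6 arrays and between 58.0% and 64.7% on the B6.MRLc1 arrays. All B6 arrays lay in slide row 1 and all B6.MRLc1 arrays in slide row 2, so row and strain cannot be told apart. In whole testis, fewer cells of a type and less RNA per cell cannot be told apart either. The contractile genes were well above background on all 6 arrays, with signals from 27.3 intensity units (Lmod1) to 87430 (Myl9), and none was saturated.

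None of the 10 contractile genes differed between the strains by the limma test, while 2.62% of all 25276 genes were called. At an unadjusted p under 0.05, 3 of the 10 passed (Mylk, Myl9 and Myh11), all higher in B6.MRLc1. Of all genes 20.1% passed, and 8.77% passed with a higher value in B6.MRLc1. The fitted differences ran from -0.13 for Actg2 to 0.30 for Mylk, and 7 of the 10 were above 0, as were 53.1% of all genes. The median over the 10 genes was 0.12, and over all genes 0.014. Each gene's 95% interval lay between 0.785-fold and 1.40-fold, and these intervals are not adjusted for the number of genes.

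The actins gave values of opposite sign, neither of them called. Acta2, the main smooth muscle actin of myoid cells, is probed at chromosome 19, 34316060 to 34316119 (mm9, minus strand). Its level was 5.43, 5.40 and 5.41 in B6 (arrays 1 to 3, as in all such lists) and 5.66, 5.44 and 5.58 in B6.MRLc1. Every B6.MRLc1 array thus lay above every B6 array, B6.MRLc1 array 2 by little. The difference was 0.15 (SE 0.072, n = 3 per strain) and did not pass (limma adjusted p = 0.32). Actg2, the enteric smooth muscle actin, is probed at chromosome 6, 83462904 to 83462963. Its level was 1.70, 1.70 and 1.52 in B6 and 1.59, 1.37 and 1.56 in B6.MRLc1. The groups overlapped, with the lowest value on B6.MRLc1 array 2, and the difference was -0.13 (SE 0.087; limma adjusted p = 0.444).

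**Figure D1:**
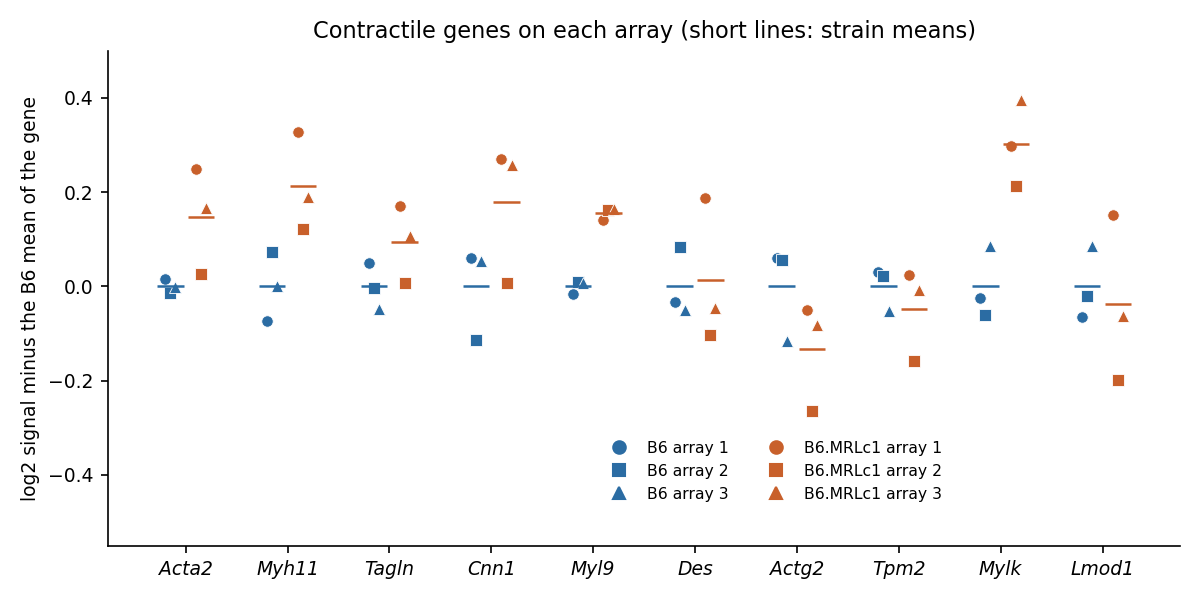
Log2 signal of each contractile gene on the 6 arrays, with the gene's B6 mean taken off (vertical axis); colours mark the strain, symbols the array and short lines the strain means. The B6.MRLc1 arrays lie wholly above the B6 arrays for Acta2, Myh11, Myl9 and Mylk, and B6.MRLc1 array 2 is the lowest of its strain for every gene but Myl9.

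The motor and its switch gave the largest values. Mylk, the kinase that starts contraction, was read at chromosome 16, 35001266 to 35001325, by the tested probe. Its level was 1.65, 1.62 and 1.76 in B6 and 1.98, 1.89 and 2.07 in B6.MRLc1, and the groups did not overlap. The difference was 0.30 (SE 0.074), a fold of 1.23 with a 95% interval of 1.09 to 1.40, and it missed the threshold (limma adjusted p = 0.105). It was called with a variance trend (limma adjusted p = 0.0489) and with array weights (0.0316), and in none of the fits that left out 1 array (0.098 to 0.301). The second Mylk probe, at 34953958 to 34954017 on the same chromosome, was annotated to another transcript and was far dimmer, at 101 to 122 intensity units. It read -2.73, -2.43 and -2.31 in B6 and -2.20, -2.58 and -2.46 in B6.MRLc1, which overlapped. Its difference was 0.08 (SE 0.15; limma adjusted p = 0.809 over the kept probes), with an interval of -0.29 to 0.44 that includes the value of the tested probe. With the mean of both probes the Mylk difference was 0.19 (limma adjusted p = 0.345).

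Myl9, the light chain that Mylk phosphorylates, is probed at chromosome 2, 156607301 to 156607360. Its level was 6.9996, 7.03 and 7.02 in B6 and 7.16, 7.18 and 7.18 in B6.MRLc1. These were the tightest groups among the 10 genes, with SDs of 0.015 and 0.013 (n = 3 each), and they did not overlap. The difference of 0.16 (SE 0.048) did not pass (limma adjusted p = 0.159). Myh11, the smooth muscle myosin heavy chain, is probed at chromosome 16, 14202190 to 14202249. It read 1.46, 1.605 and 1.53 in B6 and 1.86, 1.65 and 1.72 in B6.MRLc1. These groups did not overlap either, and the difference was 0.21 (SE 0.077; limma adjusted p = 0.209). In all, 4 of the 10 genes had every B6.MRLc1 array above every B6 array and 0 had every one below. The corresponding shares of all genes were 14.3% and 14.2%.

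None of the filament-binding proteins was called. Tagln (chromosome 9, 45738097 to 45738156) read 3.98, 3.93 and 3.89 in B6 and 4.10, 3.94 and 4.04 in B6.MRLc1, and the groups overlapped. Its difference was 0.095 (SE 0.066; limma adjusted p = 0.465). Cnn1 (chromosome 9, 21913058 to 21913117) read 2.57, 2.40 and 2.57 in B6 and 2.78, 2.52 and 2.77 in B6.MRLc1. Only B6.MRLc1 array 2 fell within the B6 range, and the difference was 0.18 (SE 0.098; limma adjusted p = 0.369).

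Tpm2, a tropomyosin gene, was read by a pair of probes on chromosome 4. The tested one, at 43532262 to 43532321, read 3.19, 3.18 and 3.11 in B6 and 3.18, 3.00 and 3.15 in B6.MRLc1, a difference of -0.05 (SE 0.07; limma adjusted p = 0.735). The other, at 43531276 to 43531335, gave 0.0090 (SE 0.073; limma adjusted p = 0.958 over the kept probes). Both probes thus showed overlapping strains and intervals that include 0.

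Lmod1, which starts new actin filaments, and Des, the intermediate filament protein of muscle, both lie on chromosome 1. The labels give the MRL segment in cM only, and whether either gene lies inside it was not analysed here. The 60 bases of the Des probe are spread over 226 bases of the genome, 75363404 to 75363629. Its level was -0.83, -0.71 and -0.85 in B6 and -0.61, -0.90 and -0.84 in B6.MRLc1. B6.MRLc1 array 1 was highest and array 2 of the same strain lowest, so the strains overlapped fully, and the difference was 0.013 (SE 0.094; limma adjusted p = 0.952). Lmod1 (137264581 to 137264640) had the dimmest probe. It read -4.33, -4.29 and -4.18 in B6 and -4.12, -4.47 and -4.33 in B6.MRLc1, a difference of -0.04 (SE 0.10; limma adjusted p = 0.866). The signs of Des, Lmod1 and Tpm2 changed when 1 array was left out, so none of the 3 has a direction.

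**Figure D2:**
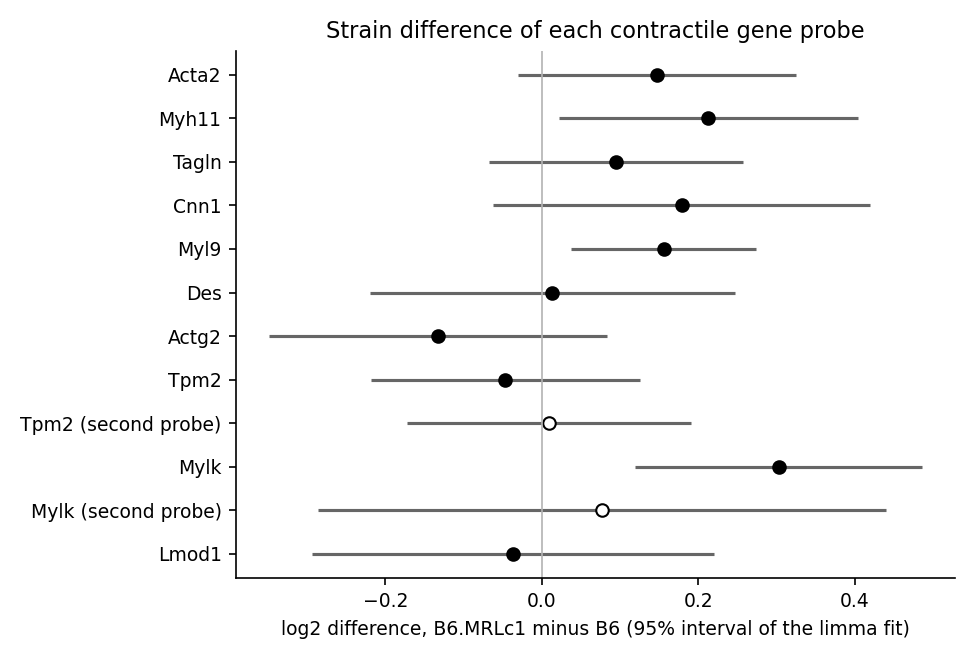
Difference between the strains for the 12 probes (horizontal axis, log2, B6.MRLc1 minus B6) with the 95% interval of the limma fit; open points are the second probes of Tpm2 and Mylk. The intervals of Mylk, Myl9 and Myh11 lie above 0 before adjustment and the other 9 include 0.

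Acta2 and Des were each printed 10 times on every array, which gives the measuring error within an array. The 10 Acta2 spots of an array had SDs of 0.032 to 0.048 on the log2 scale, and the standard error of their mean was at most 0.015. Between arrays, the SD of Acta2 was 0.016 in B6 and 0.11 in B6.MRLc1, and the spots do not measure the spread between mice. For Des, 3 spots of B6 array 2 and 4 spots of B6.MRLc1 array 1 carried an outlier flag and were left out. These were also the highest Des arrays of their strains. With the flagged spots kept, the Des difference was 0.019, against 0.013 without them.

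**Figure D3:**
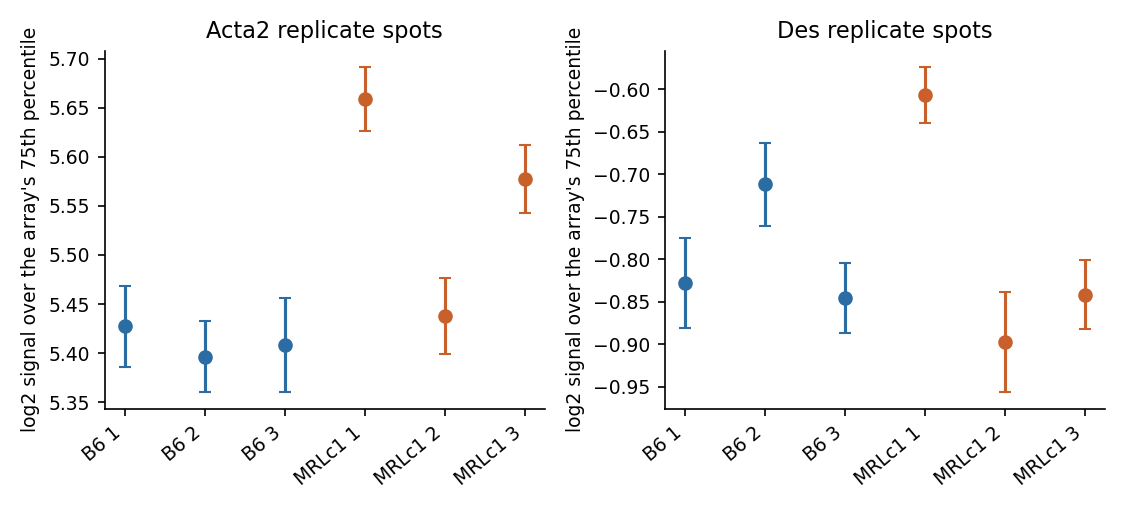
Mean of the replicate spots of Acta2 (left) and Des (right) on each array, as log2 signal over the array's 75th percentile; bars are SDs between spots, over 6 to 10 spots an array. Acta2 stands at 5.40 to 5.43 on the B6 arrays and at 5.44 to 5.66 on the B6.MRLc1 arrays, whereas the Des arrays of both strains mix.

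Setting each gene against Acta2 on the same array removes the scaling between arrays, a comparison chosen after the values were seen. Actg2 relative to Acta2 was lower on every B6.MRLc1 array than on any B6 array. Centred on its mean over the arrays, this log2 ratio was 0.18, 0.21 and 0.026 in B6 and -0.16, -0.15 and -0.11 in B6.MRLc1. Its difference was -0.28 (SE 0.095; 95% interval -0.50 to -0.057), and it did not pass over all genes (limma adjusted p = 0.161). Tpm2, Lmod1 and Des also had every B6.MRLc1 array below every B6 array in this ratio, with differences of -0.19, -0.18 and -0.13 (limma adjusted p = 0.264, 0.327 and 0.461). That makes 4 of 9 genes, against 25.7% of all genes. The ratios of Myh11, Tagln, Cnn1, Myl9 and Mylk overlapped between the strains, with differences of -0.05 to 0.16. Of the 9 genes, 0 were called by limma in this form and 1 had an unadjusted p under 0.05, while 4.64% of all genes were called and 20.2% had such a p. Centring on Acta2 moved the median difference of all genes by -0.15.

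**Figure D4:**
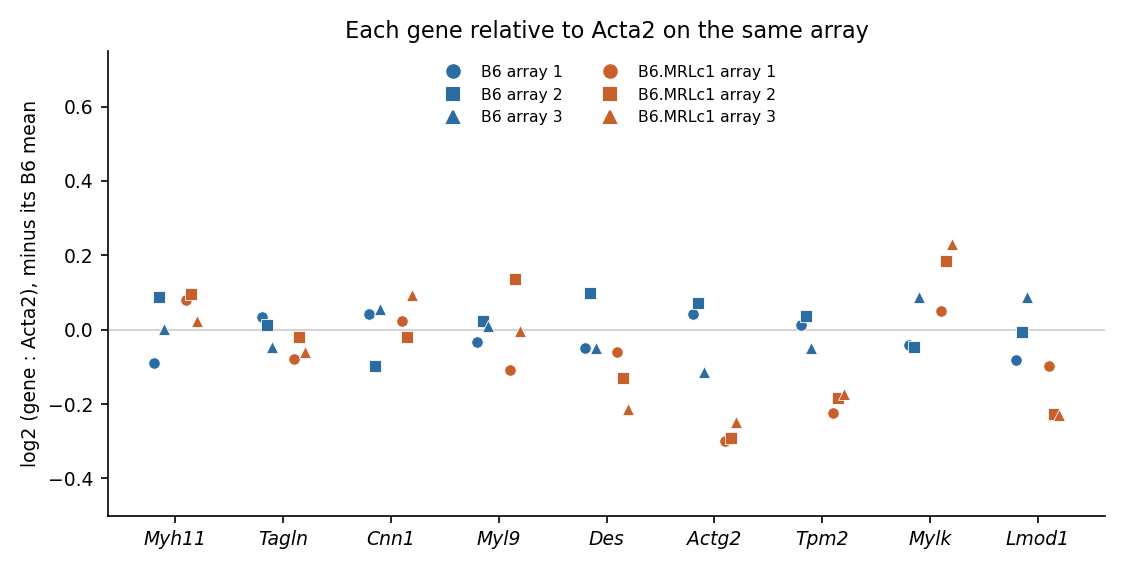
Log2 ratio of each gene to Acta2 on the same array, with its B6 mean taken off (vertical axis); colours mark the strain and symbols the array. For Actg2, Tpm2, Des and Lmod1 every B6.MRLc1 point lies below every B6 point; none of these ratios passed the limma test over all genes.

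The members did not vary as 1 block. Over the 45 pairs of genes, Pearson's r across the 6 arrays had a median of 0.50 and ran from -0.65 (Myl9 with Actg2) to 0.94 (Acta2 with Tagln). It was above 0.5 for 22 pairs and below 0 for 8. With each strain's mean taken off, the median was 0.56, and 9 pairs were below 0. Actg2 with Tpm2 stood at 0.93 over the 6 arrays and 0.96 within strains. These are descriptions over 6 points that share the array. The spread within a strain was small: the pooled SD had a median of 0.087 over the 10 genes and of 0.12 over all genes.

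A score for the 10 genes, their median deviation on each array, was -0.043, -0.042 and -0.061 in B6 and 0.16, -0.065 and 0.071 in B6.MRLc1. B6.MRLc1 array 2 thus lay at the level of the B6 arrays and the other B6.MRLc1 arrays above. Likeness of log2 signal to this score was ranked among genes with a RefSeq symbol, with clone and predicted-gene names left out. The genes at the top were Fam219a, Edn1, Manbal, H1f8 and Tmem215, with r of 0.98 to 1.00 over 6 arrays. With all names included, 209 of 25261 genes had r above 0.9, and 255 had r below -0.9. The 5 named genes are thus not the top of all 25261. Edn1, which encodes endothelin 1, a peptide that makes smooth muscle contract, read 0.10, 0.11 and 0.086 in B6 and 0.64, 0.0036 and 0.36 in B6.MRLc1. The strains overlapped through B6.MRLc1 array 2, and the difference was 0.24 (SE 0.16; limma adjusted p = 0.462).

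Over the 3 further lists on contraction, 2 of 90 tested genes were called, a share near the 2.62% of all genes. Counts at an unadjusted p under 0.05, here and for the later lists, stand beside 20.1% of all genes. Of 30 listed partners of the contractile filaments, all tested, 1 rose and 1 fell, with a list median of 0.09. Pdlim3, which binds alpha-actinin, read 2.73, 2.80 and 2.96 in B6 and 3.23, 3.27 and 3.30 in B6.MRLc1. The groups did not overlap, and Pdlim3 rose by 0.44 (SE 0.074; limma adjusted p = 0.0492). It lost its call in every fit that left out 1 array except the one without B6 array 3 (limma adjusted p up to 0.185). Tagln2, a relative of Tagln that is not confined to smooth muscle, read 3.77, 3.60 and 3.27 in B6 and 2.31, 2.40 and 2.23 in B6.MRLc1. It fell by 1.24 (SE 0.14; limma adjusted p = 0.0228), but its dimmer second probe gave 0.0055 (SE 0.16), so the probes disagree. Whether Tagln2 lies inside the MRL segment, and whether MRL sequence under a probe alters its signal, was not analysed here. The Tagln2 call also held only without B6 array 3 among those fits, and was lost in the others (limma adjusted p up to 0.0933). In this list 6 of the 30 genes had an unadjusted limma p under 0.05, 5 higher and 1 lower, a share near the 20.1% of all genes. Besides Pdlim3 and Tagln2 these were Actn4 (0.21), Smtn (0.21), Vcl (0.15) and Synpo2 (0.28), none of them called.

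Of the ligands, receptors, channels and enzymes that act on contraction, 35 of 40 genes on the array were tested. By limma 0 were called and 6 had an unadjusted p under 0.05, with a median of 0.023. Those with the smallest p were Gucy1a1, a subunit of the nitric oxide receptor that relaxes smooth muscle, and Agtr1a, an angiotensin receptor. Gucy1a1 measured 0.38 (SE 0.067; limma adjusted p = 0.0522) and Agtr1a -0.24 (SE 0.054; limma adjusted p = 0.088), each with strains that did not overlap. Among the receptors through which endothelin, vasopressin and oxytocin act, Ednra, Avpr1a and Oxtr measured -0.0024, -0.16 and 0.042, each overlapping between strains. Ednrb, the other endothelin receptor, measured -0.64 (SE 0.26; limma adjusted p = 0.256) with every B6.MRLc1 array below every B6 array.

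Of 25 tested transcription regulators of smooth muscle genes, 0 were called and 5 had an unadjusted p under 0.05, beside 20.1% of all genes. Their median was 0.067. Srf itself read 1.77, 1.83 and 1.89 in B6 and 2.23, 2.02 and 2.21 in B6.MRLc1. It measured 0.32 (SE 0.078; limma adjusted p = 0.103). Fhl2, a cofactor of Srf, measured 0.28 (SE 0.073; limma adjusted p = 0.115), and Myocd 0.11 (SE 0.13; limma adjusted p = 0.664).

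The label was checked against other peritubular genes. All 14 listed peritubular markers that are not contractile proteins were well above background on all 6 arrays. Of their differences 11 were above 0, as were 53.1% of all genes. Those of Tinagl1 (-0.23), Lgals1 (-0.17) and Pdgfrb (-0.023) were below 0. By limma 0 of the 14 were called and 5 had an unadjusted p under 0.05, all higher in B6.MRLc1, with a median of 0.17. In 8 of the 14 every B6.MRLc1 array lay above every B6 array, against 14.3% of all genes. Igfbp6 measured 0.32 (SE 0.059; limma adjusted p = 0.0554) and Nr2f2 0.25 (SE 0.055; limma adjusted p = 0.081). Vessel walls share the 10 genes. Of 14 tested markers of vessel mural cells 1 was called, Abcc9, a potassium channel subunit of pericytes, which fell by 0.44 (SE 0.059; limma adjusted p = 0.031), and the list median was -0.031. Abcc9 lost its call without any 1 of the 6 arrays (limma adjusted p = 0.0519 to 0.130). Of 12 endothelial genes 0 were called and 2 had an unadjusted p under 0.05, Vwf and Tek, with a median of -0.06.

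Of 19 tested spermatid genes 6 fell and 0 rose, with a median of -1.99, and 18 had every B6.MRLc1 array below every B6 array. Of all genes 2.62% were called and 14.2% had every B6.MRLc1 array below. This list, like the others, was chosen with earlier results of these data known, so these shares are no independent test. The filter asked for 3 arrays only, so a gene could pass through the B6 arrays alone, which favours lower values in B6.MRLc1. Among the called genes, Catsper1 was well above background on 3 arrays and Spaca7 and Odf4 on 4. Dkkl1, Acr and Tcp11 were so on all 6. The 12 calls over all lists, those of contraction included, became 1 to 12 when 1 array was left out, and 6 or fewer without any array other than B6.MRLc1 array 3. The summed signal of the 19 spermatid genes, in multiples of the 75th percentile, was 19.0 to 50.2 on the B6 arrays and 3.90 to 8.44 on the B6.MRLc1 arrays. The same sum was 211.6 to 212.1 and 227.4 to 237.7 for the 10 contractile genes. These sums add signals on the linear scale, so the brightest genes weigh most. Among the contractile genes these are Myl9 and Acta2, with mean log2 levels of 7.02 and 5.41 in B6, neither of them called. The sum says little about the dimmer members. All 20 Sertoli cell genes were tested. By limma 0 were called and 3 had an unadjusted p under 0.05, with a median of 0.10, near the 0.12 of the contractile genes. Their sum was 1351 to 1605 in B6 and 1518 to 1583 in B6.MRLc1. With each array centred on the Sertoli list, the median of the contractile genes was 0.027. The part of the spermatid genes in the values of the contractile genes was not tested.

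Tissue carried over with the testis was looked for by markers. Of 15 skeletal muscle genes, as of the cremaster, 11 were tested and 0 called by limma, with 2 at an unadjusted p under 0.05 and a median of 0.19. Ckm and Mylpf, 2 of the 15, were not well above background on any array. The 11 tested genes were well above it on 5 or 6 arrays, with Acta1, Tnni2 and Actn3 among those on all 6. The summed signal of the 11 tested genes was 8.56 to 10.8 in B6 and 10.4 to 11.04 in B6.MRLc1. Of 13 genes of epididymis and ducts 4 were tested, with 0 called by limma and 0 at an unadjusted p under 0.05. These 4, Wfdc10, Cst11, Spink10 and Cuzd1, were well above background on all 6 arrays. Wfdc10 was bright, with mean log2 levels of 6.55 in B6 and 6.84 in B6.MRLc1. For 8 of the 13, with Lcn5, Lcn8, Adam7 and Crisp1 among these, no array gave a signal well above background. Mesothelial genes, of the covering of the testis, had 0 of 8 called by limma and 4 with an unadjusted p under 0.05, all lower, with a median of -0.27 and sums of 5.47 to 6.10 and 4.99 to 5.95. Fat cell genes had 0 of 9 called and 6 with an unadjusted p under 0.05, all higher. Their median was 1.03, with sums of 20.9 to 23.8 and 24.7 to 31.1. Whether skeletal muscle, ducts, mesothelium or fat bears on the contractile genes was not tested.

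**Figure D5:**
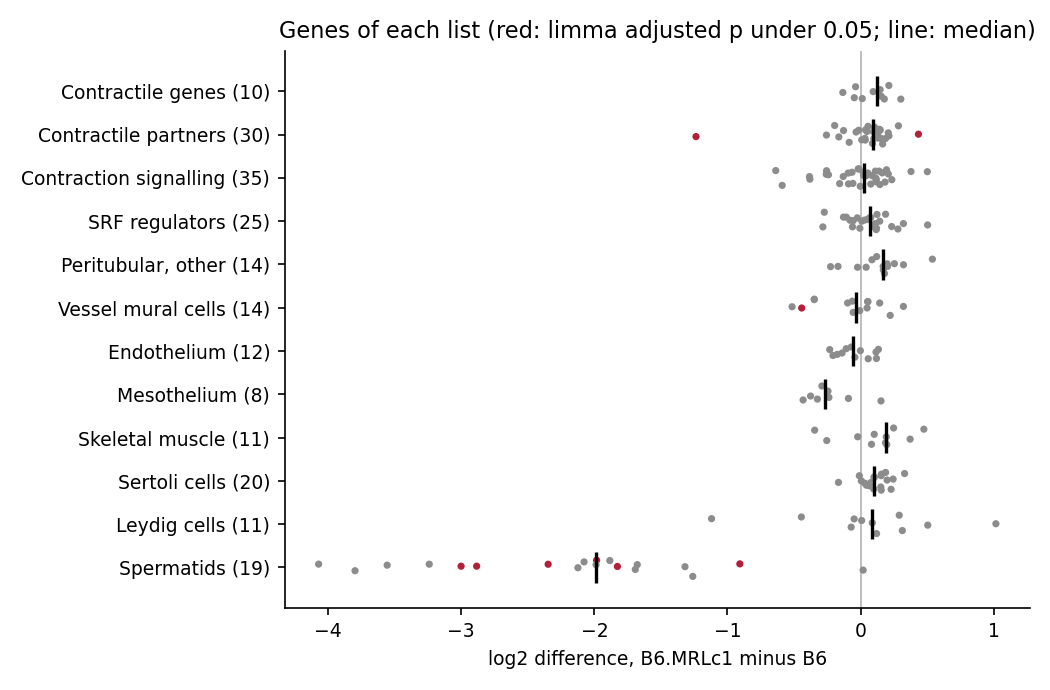
Fitted strain difference of every tested gene of 12 lists (horizontal axis, log2, B6.MRLc1 minus B6); grey points did not pass, red points have a limma adjusted p under 0.05, black lines are list medians and numbers in brackets count tested genes. The contractile genes lie between -0.13 and 0.30 with none called, while the spermatid median is -1.99.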

How the data were processed

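Per the labels' protocols, column-purified total RNA (0.1 ug) was labelled with Cy3 and hybridised to one-colour Agilent arrays. Each deposited scanner table gives a linear intensity per spot, background-subtracted and detrended per the file headers, where the version of Feature Extraction is 10.7.3.1; it is 9.5.3 in the submitters' processing notes. The authors' deposited series table holds log2 values. On each array at least 99.9% of these differed by no more than 0.05 from the scaled log2 value after centring each probe on its median, and they served as an alternative.

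After removal of control and outlier-flagged spots, signals were divided by the array's 75th percentile, put on the log2 scale and averaged over the spots of a probe. A probe was kept with values on at least 4 arrays and over 0.5 of its spots well above background on at least 3 arrays. The brightest kept probe stood for a gene. The strain contrast was fitted in limma 3.58.1 under R 4.3.3 (lmFit, eBayes), and p-values were adjusted over all genes. Probe positions are mm9, per the file headers. RefSeq accessions named 27235 probes, and the file's symbols the others.

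The 10 genes and all lists (contractile partners, contraction signalling, SRF regulators and markers of peritubular, mural, endothelial, mesothelial, skeletal muscle, epididymal, Sertoli, Leydig, germ, fat, macrophage and red cells) were chosen with earlier results of these data known. Named genes are the 10 members and the called genes of the lists with their 2 smallest p-values. The 5 genes most like the members' score, among those with a RefSeq symbol, are named too. Other genes named, and the comparison relative to Acta2, were chosen after their values were seen.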

Additional observations from a re-analysis of the deposited data

How the results depend on the processing

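With 3 arrays a strain the counts moved far, and the causes were not tested. Over all genes, 663 were called by limma (97 higher, 566 lower). The count was 33 to 367 without any 1 array, each of the 6 moving it over 1.5 times. It was 24 with the replicate number as a block, 2263 with array weights, 1204 with a variance trend, 64 without the filter on dim probes, 440 from the authors' series values, 1094 with arrays centred on the Sertoli list and 1173 centred on Acta2 (39 higher, 1134 lower). With normexp the split was 264 higher and 618 lower. Of the 10 contractile genes 0 were called in the reported fit and without any 1 array, and 1 (Mylk) under array weights and 1 under a variance trend. Their median, 0.12, was 0.077 to 0.15 without any 1 array, 0.027 centred on the Sertoli list and -0.052 centred on Acta2. Of the genes of all other lists 12 were called, 1 to 12 without any 1 array, 1 with the replicate block, 22 with normexp, 2 without the filter, 33 with array weights, 25 with a variance trend and 21 centred on Acta2. Of the 3 contraction pathway lists 2 genes were called, 0 to 2 without any 1 array, 0 with the replicate block and without the filter, 1 with quantile normalization, with the mean of probes, with the deposited values and centred on Acta2, 4 with a variance trend and 7 with array weights. Signs turned for Des (-0.075 to 0.071 without any 1 array, -0.082 centred on the Sertoli list, -0.069 with array weights, -0.13 centred on Acta2), Tpm2 (-0.082 to 0.0081 without any 1 array), Lmod1 (-0.13 to 0.044 without any 1 array, 0.15 with normexp) and Tagln (-0.052 centred on Acta2). They also turned for Slc4a1 (-0.015), Fam219a (-0.0070), Manbal (-0.072) and Tmem215 (-0.10) centred on Acta2, for Manbal (-0.019) and Tmem215 (-0.047) on the Sertoli list, and for Manbal with the mean of probes (-0.018). Acta2, Myh11, Cnn1, Myl9, Actg2 and Mylk kept their sign in all alternatives run. Replicate numbers pair nothing in the labels, but same-numbered arrays lay in the same slide column, so the block is also one of slide column. Deviations of same-numbered arrays correlated at -0.044, 0.17 and 0.088. The block was used as an alternative only, and 0 of the 10 contractile genes were called under it. Centring on Acta2 and keeping outlier spots were chosen after seeing the data. No spot was saturated, and Lmod1, at 27.3 to 33.1 intensity units, is nearest to background.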

Other observations

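The remaining lists gave these values. Of 11 Leydig cell genes 0 were called by limma and 4 had an unadjusted p under 0.05, with a median of 0.089, Akr1b7 at -1.12 (adjusted p = 0.0558) and Hsd3b6 at 1.02 (0.0604). Of 17 spermatocyte genes 2 fell (list median -0.093), Rec8 by 0.53 and Ldhc by 3.18 (limma adjusted p = 0.0226 and 0.0417). The 6 spermatid genes that fell were Catsper1, Spaca7, Dkkl1, Acr, Tcp11 and Odf4. Of these, Catsper1 was well above background on 3 arrays only, and Spaca7 and Odf4 on 4. Macrophage genes had 0 of 11 called and 1 with an unadjusted p under 0.05, Cx3cr1, at 0.79 (limma adjusted p = 0.145), with Cd163 at -0.70 and a median of -0.17. Alas2, of haem synthesis, fell by 1.04 (limma adjusted p = 0.00809) while the other 5 tested red cell genes measured above 0 and were not called, Slc4a1 at 0.13 and the list median at 0.75. The fat cell genes Fabp4 and Retn measured 1.15 and 1.05 and the epididymal list's Wfdc10 and Cst11 0.29 and 0.58, none of them called, with an epididymal list median of 0.18. Upk1b and Upk3b of the mesothelium measured -0.38 and -0.24, Myl1 and Tnni2 of skeletal muscle -0.25 and 0.19, Fshr and Gata4 of Sertoli cells 0.33 and 0.23, and Cspg4 of mural cells 0.22, none of them called.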
